A study of Mus musculus with 6 samples.

Results

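The core circadian clock of the mouse cerebellum was described through 10 genes, Per1, Per2, Per3, Cry1, Cry2, Ciart, Arntl, Nr1d1, Nr1d2 and Dbp. They are named by their roles, as the repressors, the activator, the nuclear receptors and a standard output gene of the clock. The rule uses no measured value, but the set was drawn up with earlier results of these data known. All 10 were among the 53715 mouse genes of the deposited table and all 10 passed the filter on low counts, which kept 16123 genes for testing.

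The study asked which cerebellar transcripts change when dietary manganese (Mn) is withdrawn. Cerebella came from male wild-type C57BL/6 mice, 1 cerebellum and 1 RNA-seq library per mouse, with 3 mice on a low-Mn diet, labelled 0 ppm Mn, and 3 on a normal-Mn diet, labelled 35 ppm Mn, for 2 weeks. Mice were 4 weeks old when bought, carried no transgene, and all ate the normal-Mn purified diet before the groups were split. The methods call the mice biological replicates and a figure legend calls them technical, and if they were technical, the p-values cover no more than library-to-library spread. The hour at which tissue was collected and the lighting schedule were not found in the labels or the methods, so the levels below carry no time of day.

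The clock is a feedback loop of transcription. The activators ARNTL (also called BMAL1) and CLOCK bind E-boxes and switch on the Per and Cry genes, whose proteins return to the nucleus and silence that activation about once a day. A second arm runs through the nuclear receptors NR1D1 and NR1D2 (REV-ERB alpha and beta), which repress Arntl at ROR elements, and a further one through DBP, which activates genes at D-boxes. Per1 is also an acute response gene, since glucocorticoid hormone and signals that activate the transcription factor CREB raise it outside the daily cycle. The cerebellum keeps a local clock of this kind.

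Library totals ran from 14548336 to 17124327 expected counts on the low-Mn diet and from 18446701 to 21277469 on the normal-Mn diet. Every low-Mn library was thus shallower than every normal-Mn library, and CPM values rely on scaling for that depth. The clock genes held between 267 counts (Ciart) and 5564 counts (Nr1d2) in a library. Markers of granule and Purkinje neurons, 8 genes each, were all above 0 in every library, and their summed levels overlapped between the diets. The summed markers of oligodendrocytes were lower in every low-Mn library (6634 to 6912 CPM against 7111 to 7894), as were those of astrocytes (2858 to 2919 against 2954 to 3076) and microglia (143 to 151 against 161 to 164). Log2 fold changes were negative for 8, 6 and 7 of 8 markers of these cell types, and no marker was at 0. Sums for choroid plexus and meninges overlapped between the diets, with 7 and 8 of 8 markers negative. Ttr (2219 and 2549 CPM on the low-Mn and normal-Mn diets) and Ptgds (1219 and 1281 CPM) made up most of these sums. Marker medians of log2 fold change were -0.25 for choroid plexus and -0.24 for meninges, against -0.14, -0.10 and -0.07 for oligodendrocytes, microglia and astrocytes. In choroid plexus and meninges, 4 of 8 markers each were lower without overlap (8.32% of all genes). This held for 5, 3 and 1 of 8 in oligodendrocytes, microglia and astrocytes. In bulk tissue, fewer cells of a type and less RNA per cell cannot be told apart.

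Per kilobase of exon, the clock genes fell into 4 tiers that did not overlap over the 6 libraries. The top tier held Dbp with a CPM per kilobase of 51.8 ± 2.11, Nr1d1 with 50.5 ± 2.75 and Nr1d2 with 48.7 ± 1.41 (SD, n = 6), whose ranges overlapped in turn. Cry2, Per1 and Cry1 followed at 19.3 ± 0.792, 16.4 ± 2.69 and 14.9 ± 1.51 CPM per kilobase, again with overlapping ranges. Ciart, Per2 and Per3 lay at 8.98 ± 0.681, 8.42 ± 1.72 and 6.92 ± 0.556 CPM per kilobase, and neighbours in this order also overlapped. Within these tiers the order depended on the diet. Per1 was above Cry1 in the low-Mn libraries (18.7 against 15.4 CPM per kilobase) and close to it in the normal-Mn libraries (14.0 against 14.3), and Per2 was above Ciart on the low-Mn diet only (9.38 against 8.86, with 7.45 against 9.11 on the normal-Mn diet). Nr1d2 was likewise above Nr1d1 on the low-Mn diet only (49.8 against 48.6, with 47.6 against 52.3). Arntl, the activator, was lowest at 4.08 ± 0.298 CPM per kilobase. By this measure Dbp and the nuclear receptors were highest among the 10 clock genes, and Arntl lowest. The length used was all annotated exon bases of a gene, from 2261 (Ciart) to 9608 (Per3), with 7523 for Arntl. It can exceed the length of the transcripts present, which were not measured, so the tiers depend on the annotation.

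Between the diets, 1 of the 10 clock genes rose and 0 fell at an edgeR adjusted p below 0.05, in a comparison where 0.595% of all tested genes passed (0.416% higher and 0.18% lower). The gene that rose was Per1, which DESeq2 also called as the 1 clock gene higher, with 0 lower. At an unadjusted p below 0.05 stood 4 clock genes, Per1, Per2, Dbp and Nr1d1, against 12.1% of all genes. In 3 clock genes the 2 diets did not overlap, Per1 and Nr1d2 higher and Dbp lower on the low-Mn diet, against 17.1% of all genes (8.79% higher and 8.32% lower). The median log2 fold change (low-Mn relative to normal-Mn) was 0.08 for the clock genes and -0.0025 for all genes tested. With 10 genes these shares are coarse, and the description below goes gene by gene.

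**Figure D1:**
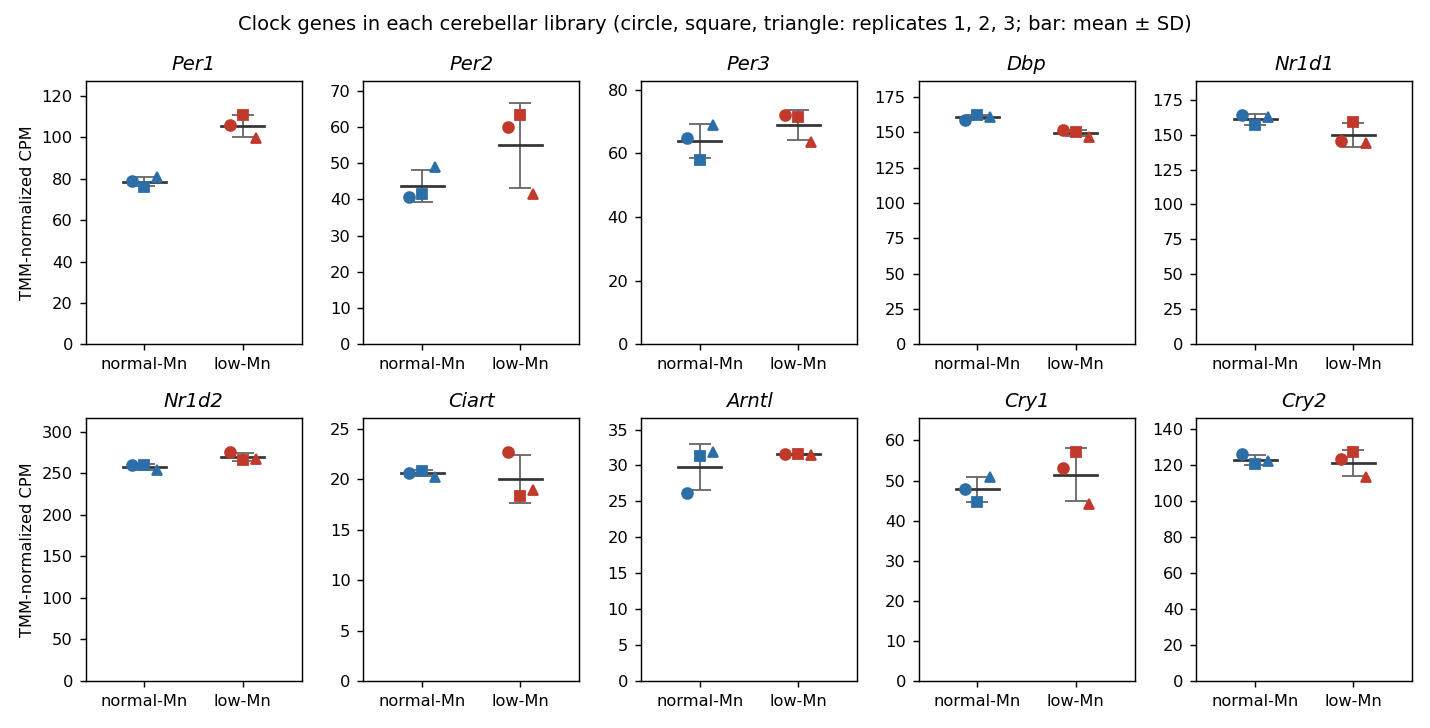
TMM-normalized CPM of the 10 clock genes in each library, with normal-Mn in blue and low-Mn in red, the marker shape giving the replicate (circle 1, square 2, triangle 3) and the bars the mean ± SD of 3 libraries. The diets separate for Per1 (76.2 to 81.0 against 99.9 to 111) and, by much less, for Dbp and Nr1d2, while the low-Mn libraries of Per2 spread from 41.5 to 63.2.

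Per1 (ENSMUSG00000020893, chromosome 11, 69095217 to 69109960 of GRCm38, plus strand) encodes a repressor that acts in complex with the CRY proteins. RefSeq lists 2 promoters for it on GRCm38.p6, at chr11:69098699-69098998 and chr11:69099902-69100201, both on the plus strand. They are printed because Per1 carries the difference between the diets. Each window runs from 250 bases before to 50 bases after the start, and capitals mark every match to the motifs searched on both strands. In the motifs, N stands for any base, so a match is looser than a known binding site. These motifs were the E-box CACGTG, its variant CACGTT, the D-box TTANGTAA, the ROR element TNGGTCA, the cyclic AMP response element (CRE) TGACGTCA, its shorter core TGACG, which also lies within the full CRE, and the core of the glucocorticoid response element (GRE), AGAACA.
Per1 promoter 1: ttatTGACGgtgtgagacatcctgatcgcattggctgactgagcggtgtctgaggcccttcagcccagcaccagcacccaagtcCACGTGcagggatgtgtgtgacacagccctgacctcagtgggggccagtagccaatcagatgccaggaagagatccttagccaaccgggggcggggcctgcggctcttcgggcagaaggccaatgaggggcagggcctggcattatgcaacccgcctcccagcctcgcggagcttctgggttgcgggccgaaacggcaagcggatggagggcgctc
Per1 promoter 2: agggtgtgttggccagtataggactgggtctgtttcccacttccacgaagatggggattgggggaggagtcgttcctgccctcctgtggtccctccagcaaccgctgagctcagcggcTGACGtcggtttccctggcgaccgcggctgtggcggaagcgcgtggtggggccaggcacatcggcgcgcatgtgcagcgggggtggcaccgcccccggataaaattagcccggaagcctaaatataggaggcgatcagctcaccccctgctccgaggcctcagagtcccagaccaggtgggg
The first window held an E-box that began 166 bases before the start, a motif found in 7.15% of the 32851 promoters of the table, and a CRE core 246 bases before it. The second held a CRE core 132 bases before the start, a motif found in 20.81% of promoters. Neither held the full CRE (1.79% of promoters) or the GRE core (18.97%). A match of letters is a description of these windows only.

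In the low-Mn libraries, replicates 1, 2 and 3, Per1 stood at 106, 111 and 99.9 CPM, and in the normal-Mn libraries at 78.9, 76.2 and 81.0 CPM. Every low-Mn library was above every normal-Mn library, and the gap between the diets was wider than the range within either. The means were 106 ± 5.41 and 78.7 ± 2.38 CPM (SD, n = 3 each), a ratio of 1.34 with a 95% interval of 1.24 to 1.45. On the log2 scale the difference was 0.42 (SE 0.0532, edgeR adjusted p = 5.5e-04). Before scaling, Per1 counts were 1822, 1611 and 1620 in the low-Mn libraries and 1686, 1601 and 1494 in the normal-Mn libraries. These counts overlapped, so the CPM difference between the diets rests on scaling for library depth. Per1 shared no 50-base stretch of its exons with another annotated gene. It passed the test in 14 of 14 alternative settings, and with any 1 library left out its log2 fold change lay between 0.39 and 0.46. Of all genes, 0.968% were called with DESeq2, 0.907% with an average of at least 100 counts and 0.794% with a replicate block, and 0.283%, 0.483% and 0.567% without low-Mn replicate 1, low-Mn replicate 3 and normal-Mn replicate 1. The oligodendrocyte, astrocyte and microglia sums moved with diet as well, downwards, as did most single markers of choroid plexus and meninges. The part of these cell types in the Per1 result was not tested.

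Per2 (ENSMUSG00000055866, chromosome 1, 91415982 to 91459324, minus strand), the partner of Per1 in the repressor complex, behaved unevenly. Its low-Mn libraries held 60.1, 63.2 and 41.5 CPM and its normal-Mn libraries 40.6, 41.5 and 48.8 CPM. Low-Mn replicates 1 and 2 were the highest of the 6, and low-Mn replicate 3 lay inside the normal-Mn range, so the diets overlapped. The log2 fold change was 0.33 (SE 0.108, 95% interval 0.11 to 0.56, edgeR adjusted p = 0.197), with means of 54.9 ± 11.7 and 43.7 ± 4.50 CPM (SD, n = 3). Without low-Mn replicate 3 it was 0.50 with an edgeR adjusted p of 0.00852, and with no filter on low counts it passed as well, at 0.32 with an edgeR adjusted p of 5.4e-04, in a setting where 1.57% of genes were called. With DESeq2 the adjusted p of Per2 was 0.566. Leaving out 1 library therefore changed the call of Per2.

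Per3 (ENSMUSG00000028957, chromosome 4, 151003652 to 151044665, minus strand) is the period gene that the loop can best do without. Its low-Mn libraries held 72.0, 71.5 and 63.5 CPM and its normal-Mn libraries 64.9, 58.0 and 68.8 CPM, with overlap. The difference was 0.11 on the log2 scale (95% interval -0.03 to 0.25, edgeR adjusted p = 0.535). Its promoter at chr4:151044616-151044915, minus strand, is printed because its matches differ from those of Per1. It held 2 matches to the D-box motif, 1 to the loose ROR motif and no E-box.
Per3 promoter: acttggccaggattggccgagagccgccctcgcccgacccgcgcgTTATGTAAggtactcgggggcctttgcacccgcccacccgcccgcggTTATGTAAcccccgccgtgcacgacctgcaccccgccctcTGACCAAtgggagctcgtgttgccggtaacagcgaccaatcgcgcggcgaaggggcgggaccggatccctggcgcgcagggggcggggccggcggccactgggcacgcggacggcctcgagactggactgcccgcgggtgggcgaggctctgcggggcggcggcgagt
The D-box matches began 205 and 158 bases before the start and the ROR match, TGACCAA on the opposite strand, 118 bases before it. Matches to the D-box motif were present in 2.323% and to the ROR motif in 10.96% of all promoters. The 3 period genes were thus placed in the order Per1, Per2, Per3 by the size of their log2 fold change. The intervals of Per1 and Per2 overlapped, and that of Per3 included 0.

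Of the cryptochrome genes, whose proteins hold the strongest repressor activity of the complex, neither passed the test. Cry1 (ENSMUSG00000020038, chromosome 10, 85131700 to 85185064) held 53.1, 57.1 and 44.2 CPM in the low-Mn libraries and 47.8, 44.7 and 50.9 CPM in the normal-Mn libraries. Low-Mn replicates 1 and 2 were again the highest and replicate 3 the lowest of the 6. The log2 fold change of Cry1 was 0.11 (95% interval -0.06 to 0.27, edgeR adjusted p = 0.647). Cry2 (ENSMUSG00000068742, chromosome 2, 92403646 to 92434043) held 123, 127 and 113 CPM against 126, 120 and 122 CPM, with the low-Mn libraries on both sides of the normal-Mn ones. Its log2 fold change was -0.02 (95% interval -0.13 to 0.09, edgeR adjusted p = 0.926).

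Ciart (ENSMUSG00000038550, chromosome 3, 95878503 to 95882251, minus strand) encodes a further repressor, CHRONO, that acts on ARNTL and CLOCK. Its promoter at chr3:95882179-95882478 is printed because it held 3 E-boxes, more than any other clock gene promoter here, against 1 in the first Per1 window.
Ciart promoter: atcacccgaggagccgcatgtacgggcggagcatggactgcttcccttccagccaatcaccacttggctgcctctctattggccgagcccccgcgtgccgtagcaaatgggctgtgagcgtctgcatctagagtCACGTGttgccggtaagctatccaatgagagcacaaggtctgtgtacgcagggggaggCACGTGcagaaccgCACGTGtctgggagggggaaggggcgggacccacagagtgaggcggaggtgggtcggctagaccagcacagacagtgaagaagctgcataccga
These E-boxes began 116, 58 and 44 bases before the start. Ciart held 22.7, 18.3 and 19.0 CPM in the low-Mn libraries and 20.7, 20.9 and 20.3 CPM in the normal-Mn libraries. The normal-Mn libraries lay within the low-Mn range, and the log2 fold change was -0.04 (95% interval -0.24 to 0.16, edgeR adjusted p = 0.922). Of its exonic 50-mers, 11.93% also occurred in another annotated gene, mostly the pseudogene Gm9176, which had 1 count in 1 library.

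Among the 11 promoters found for 9 clock genes, E-boxes occurred in 3, those of Per1, Ciart and Cry1, and CACGTT in those of Nr1d1, Cry1 and Cry2. Per1, Ciart and Cry1 had log2 fold changes of 0.42, -0.04 and 0.11, and only Per1 of these 3 passed the test. CRE cores occurred in the 2 Per1 windows and in those of Cry1 and Cry2.

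Arntl (ENSMUSG00000055116, chromosome 7, 113207465 to 113314126, plus strand), the activator, is a gene that the REV-ERB receptors repress at ROR elements. RefSeq lists 2 overlapping promoters, and the first, at chr7:113207215-113207514, is printed to show its 2 matches to the searched ROR motif.
Arntl promoter 1: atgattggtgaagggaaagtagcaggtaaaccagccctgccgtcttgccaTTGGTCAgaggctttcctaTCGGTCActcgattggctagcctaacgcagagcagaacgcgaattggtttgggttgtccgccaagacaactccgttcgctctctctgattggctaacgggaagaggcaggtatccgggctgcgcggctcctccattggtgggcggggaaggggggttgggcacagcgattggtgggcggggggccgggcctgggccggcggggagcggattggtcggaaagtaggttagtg
These matches of letters, TTGGTCA and TCGGTCA, began 200 and 181 bases before the start, and differ at the base that the motif leaves free. Whether the receptors act at them was not tested. The second window holds the same pair and a further match, TAGGTCA, 30 bases after its own start. The window printed does not reach that match. Arntl held 31.6, 31.6 and 31.5 CPM in the low-Mn libraries and 26.1, 31.3 and 31.9 CPM in the normal-Mn libraries. Normal-Mn replicate 1 was low and the other 5 libraries lay within 31.3 to 31.9 CPM. The log2 fold change was 0.09 (95% interval -0.08 to 0.26, edgeR adjusted p = 0.736), and without normal-Mn replicate 1 it was -0.00044.

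The receptors that repress Arntl did not pass the test and had log2 fold changes of opposite sign. Nr1d1 (ENSMUSG00000020889, chromosome 11, 98767932 to 98775333) held 145, 159 and 144 CPM in the low-Mn libraries and 164, 157 and 162 CPM in the normal-Mn libraries. Low-Mn replicates 1 and 3 were below all normal-Mn libraries and replicate 2 was among them. The log2 fold change was -0.11 (95% interval -0.21 to -0.0037, unadjusted p = 0.0430, edgeR adjusted p = 0.392). Nr1d1 overlaps Thra, which encodes thyroid hormone receptor alpha, over 263 exonic bases on the opposite strand (8.55% of its exons). Thra held 416 ± 21.2 and 425 ± 10.2 CPM (SD, n = 3) on the low-Mn and normal-Mn diets. Nr1d2 (ENSMUSG00000021775, chromosome 14, 18204054 to 18239127) held 275, 266 and 267 CPM against 260, 259 and 253 CPM. All low-Mn libraries of Nr1d2 were above all normal-Mn libraries, by a small margin, with a log2 fold change of 0.07 (95% interval -0.02 to 0.15, edgeR adjusted p = 0.570). Smaller shared stretches were 5.13% of the exonic 50-mers of Nr1d2, found also in AC170187.1, and 3.29% of those of Cry2, found mostly in D930015M05Rik.

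Dbp (ENSMUSG00000059824, chromosome 7, 45705088 to 45710203), the D-box activator and a direct target of ARNTL and CLOCK, held 151, 150 and 147 CPM in the low-Mn libraries and 159, 162 and 161 CPM in the normal-Mn libraries. Every low-Mn library was below every normal-Mn library, and replicates of each diet lay close together. The means were 149 ± 2.41 and 160 ± 1.47 CPM (SD, n = 3). The log2 fold change was -0.10 (SE 0.0442, 95% interval -0.19 to -0.01, unadjusted p = 0.0306, edgeR adjusted p = 0.346). The Dbp value did not pass the test over all genes. Dbp overlaps Sphk2, a sphingosine kinase gene on the opposite strand, over 539 exonic bases (18.01% of its exons). The labels name a directional library kit and the methods name the kit without that word. Neither says whether reads were counted by strand, and without strand the reads of that stretch cannot be told apart. Sphk2 held 28.1 ± 1.93 CPM on the low-Mn and 25.7 ± 1.57 CPM on the normal-Mn diet (SD, n = 3, edgeR adjusted p = 0.566).

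**Figure D2:**
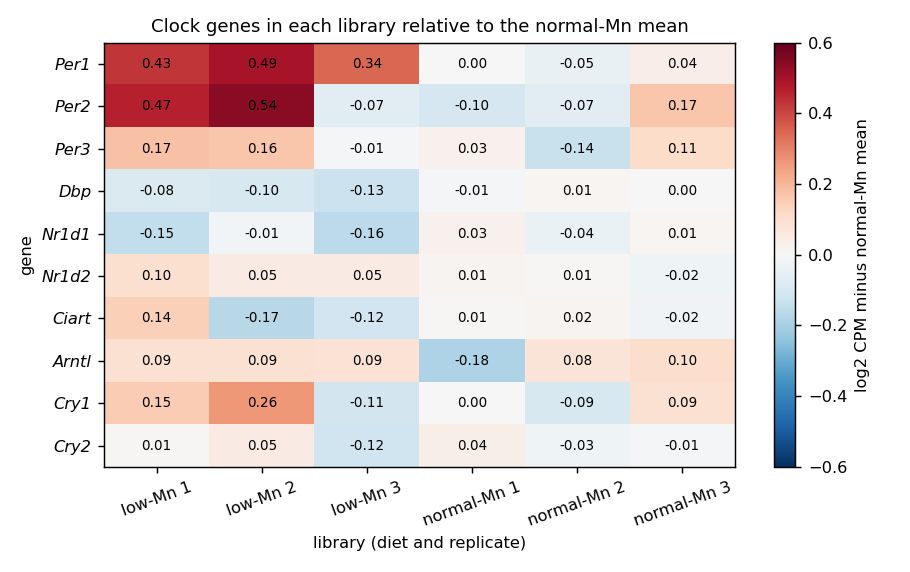
Log2 CPM of each clock gene (rows) in each library (columns), minus the normal-Mn mean of that gene, with red above and blue below 0. Per1 is between 0.34 and 0.49 in all low-Mn libraries, while Per2 is 0.47 and 0.54 in low-Mn replicates 1 and 2 and -0.07 in replicate 3.

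Libraries differed within a diet in a way that ran across several clock genes. Of the 3 low-Mn libraries, replicate 3 was the lowest for 8 of the 10 genes, the exceptions being Nr1d2 and Ciart. Replicate 2 was the highest for 5, among them Per1, Per2 and both cryptochrome genes, and replicate 1 for the other 5. In the normal-Mn libraries, replicate 2 was the lowest for 5 clock genes and replicate 3 the highest for 5. The order of replicates has no meaning of its own, and the spread it shows is included in the errors above.

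The response of Per1 was set against that of each other clock gene within libraries, as log2 CPM of Per1 minus log2 CPM of the other gene, which does not depend on how libraries were scaled. Against Dbp the low-Mn libraries exceeded the normal-Mn libraries by 0.53 on the log2 scale, against Nr1d1 by 0.53, against Ciart by 0.47 and against Cry2 by 0.44. The difference was 0.36 against Nr1d2, 0.33 against Arntl, 0.32 against Cry1 and 0.31 against Per3. In these 8 pairs every low-Mn library lay above every normal-Mn library, and each gave p = 0.1 in a two-sided exact permutation test over 3 libraries against 3, the smallest value that design allows (0.1125 after Benjamini-Hochberg adjustment over 9 pairs). The design therefore could not reach 0.05 for any pair. All 9 ratios share the same Per1 values, so the pairs are not independent and largely restate the separation of Per1. Per2 was the remaining partner, with a difference of 0.11 and overlapping diets (exact permutation p = 0.7), and without low-Mn replicate 3 that difference was -0.04. The Per1 to Per2 log2 difference was 0.82, 0.81 and 1.27 in the low-Mn libraries and 0.96, 0.88 and 0.73 in the normal-Mn libraries.

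**Figure D3:**
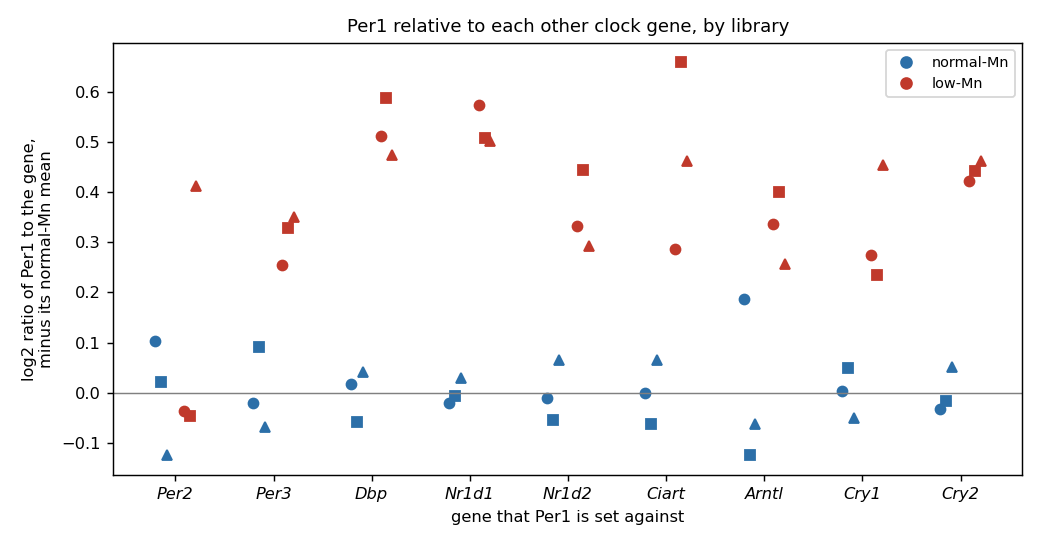
Log2 ratio of Per1 to each other clock gene in every library, minus the normal-Mn mean of that ratio, with blue for normal-Mn, red for low-Mn, and circle, square and triangle for replicates 1, 2 and 3. All low-Mn points lie above all normal-Mn points for each gene except Per2, where low-Mn replicates 1 and 2 fall among the normal-Mn libraries.

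Arntl peaks at the opposite time of the daily cycle from Dbp, Nr1d1 and the period genes, so their ratio to Arntl was also read in each library, as a description. Relative to Arntl, Per1 was higher by 0.33 on the log2 scale on the low-Mn diet, Dbp lower (-0.19) and Nr1d1 lower (-0.20). The diets did not overlap for Per1 and Dbp, and they overlapped for Nr1d1, for Per2 (0.22) and for Per3 (0.02). The low Arntl value of normal-Mn replicate 1 enters each of these ratios. Each library was also left out in turn, a step chosen after seeing the data. Without normal-Mn replicate 1 the differences were 0.42 for Per1, -0.11 for Dbp, -0.09 for Nr1d1, 0.26 for Per2 and 0.12 for Per3. The Per2 difference ran from 0.11 without low-Mn replicate 2 to 0.41 without low-Mn replicate 3, and that of Per3 from -0.09 without normal-Mn replicate 2 to 0.12. Per1 and Dbp lay on opposite sides relative to Arntl with any 1 library left out, in a comparison with no test.

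The pathway around these genes was read from 27 further genes, all of which were tested. At an edgeR adjusted p below 0.05, 0 rose and 0 fell (0.595% of all genes passed), 4 had an unadjusted p below 0.05 (12.1% of all genes), and in DESeq2, which called 0.968% of all genes, 1 rose and 1 fell. Their median log2 fold change was 0.02. In 4 of them the diets did not overlap, 3 higher and 1 lower (17.1% of all genes).

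Clock (ENSMUSG00000029238), the dimer partner of ARNTL, held 109, 102 and 113 CPM in the low-Mn libraries and 102, 110 and 108 CPM in the normal-Mn libraries, and was chosen for naming because of that role after its values were seen. Its log2 fold change was 0.02 (95% interval -0.09 to 0.13, edgeR adjusted p = 0.930). Arntl2 and Npas2, paralogs of the activator pair, had few counts, with 1.24 to 3.82 and 2.90 to 5.24 CPM over the 6 libraries. Their log2 fold changes of 0.56 and 0.35 had wide intervals that included 0 (-0.06 to 1.19 and -0.13 to 0.84). Rorb, a receptor that activates at ROR elements, stood at -0.05 (edgeR adjusted p = 0.912).

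Of the PAR bZIP factors, relatives of DBP, and the DEC repressors, which compete for E-boxes, 0 of 5 passed by edgeR or DESeq2 and 0 had an unadjusted p below 0.05. Tef, Bhlhe41 and Bhlhe40 had log2 fold changes of 0.07, -0.08 and -0.05, with edgeR adjusted p from 0.631 to 0.745. Bhlhe41 shared 16.35% of its exonic 50-mers with another gene, mostly Gm43909 on the opposite strand. The D-box factor Tef thus did not share the sign of Dbp, and neither passed.

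Of 10 genes that set the stability of the clock proteins or act beside them, 0 passed by edgeR (0.595% of all genes) and 3 had an unadjusted p below 0.05 (12.1% of all genes). Usp2, a ubiquitin protease that acts on clock proteins, held 81.1, 83.4 and 78.0 CPM in the low-Mn libraries and 70.4, 70.3 and 63.5 CPM in the normal-Mn libraries. The diets did not overlap, and the log2 fold change was 0.25 (SE 0.0568, edgeR adjusted p = 0.0512). In DESeq2 the adjusted p of Usp2 was 0.0240. Csnk1d, the casein kinase that phosphorylates PER proteins, held 132, 129 and 127 CPM against 121, 106 and 122 CPM, without overlap, with a log2 fold change of 0.16 (edgeR adjusted p = 0.228).

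Of the 6 output genes, Cirbp, which encodes a cold-inducible RNA-binding protein, had the smallest p. It held 87.8, 82.3 and 83.7 CPM in the low-Mn libraries and 94.3, 102 and 99.8 CPM in the normal-Mn libraries, with every low-Mn library below every normal-Mn library. The log2 fold change was -0.22 (SE 0.0523, edgeR adjusted p = 0.0589), and DESeq2 gave an adjusted p of 0.0264. Rbm3, its cold-inducible relative, had -0.12 (edgeR adjusted p = 0.413) with overlapping diets. Nampt, the rate-limiting enzyme of NAD salvage, had 0.11 (edgeR adjusted p = 0.462).

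**Figure D4:**
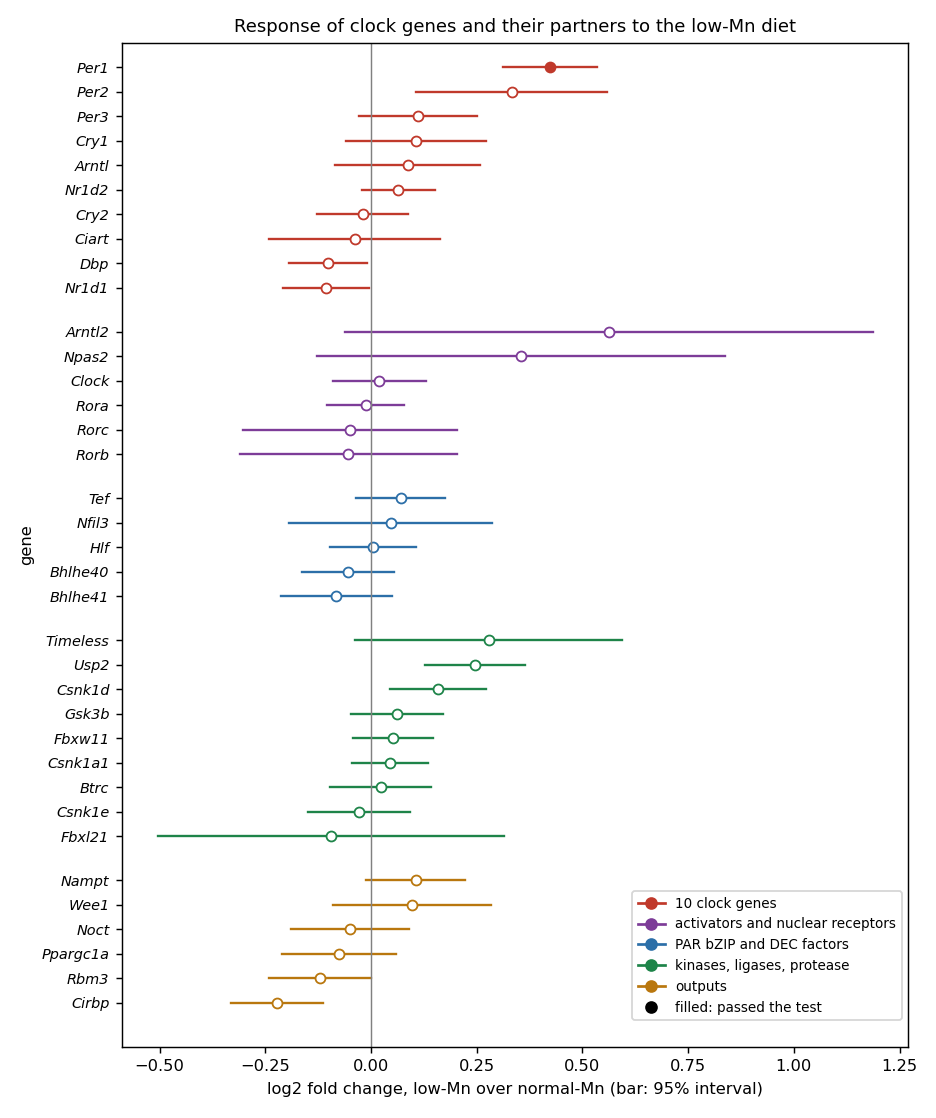
Log2 fold change on the low-Mn diet relative to the normal-Mn diet for the 10 clock genes and their partner genes (circles, filled where the edgeR adjusted p was below 0.05) with 95% intervals (bars), coloured by role. Per1 at 0.42 is the only filled circle, and the widest intervals belong to genes of few counts such as Arntl2.

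Because Per1 answers to hormones and to neuronal activity, 2 lists of genes of those inputs were read beside it. Both lists were drawn up with earlier results of these data known, and the study had already reported Ddit4 and Sgk1 as upregulated. The counts and medians below therefore describe the lists and are no test of an input. Of 16 glucocorticoid-responsive and receptor genes, all tested, 2 rose and 0 fell (0.416% and 0.18% of all genes), with a median log2 fold change of 0.13 against -0.0025 for all genes. At an unadjusted p below 0.05 stood 8 of them (12.1% of all genes), and in 8 the diets did not overlap, 7 higher and 1 lower (17.1% of all genes). DESeq2 called 3 higher and 0 lower (0.968% of all genes). Ddit4, an inhibitor of mTOR signalling, rose by 0.55 on the log2 scale, with 81.4, 81.0 and 67.0 CPM in the low-Mn libraries and 53.4, 53.1 and 49.97 CPM in the normal-Mn libraries (edgeR adjusted p = 5.5e-04). Sgk1, a kinase of the serum and glucocorticoid response, rose by 0.52, with 105, 93.9 and 107 CPM against 61.9, 81.7 and 69.6 CPM (edgeR adjusted p = 0.00183). Both genes were above the normal-Mn range in every low-Mn library, like Per1.

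The third glucocorticoid gene by p was Dusp1, a phosphatase of the MAP kinases, with 40.5, 55.5 and 27.2 CPM against 31.4, 21.1 and 17.5 CPM and a log2 fold change of 0.80 (edgeR adjusted p = 0.0534). Its diets overlapped through low-Mn replicate 3. Fkbp5 and Tsc22d3, among the most used markers of the hormone and named here after their values were seen, did not pass, at -0.15 (95% interval -0.40 to 0.10) and 0.08 (95% interval -0.03 to 0.19). Nr3c1, the glucocorticoid receptor itself and likewise named after its values were seen, stood at -0.04 (95% interval -0.14 to 0.06). Of the other genes, also named after their values were seen, Klf9, Nfkbia, Cdkn1a, Errfi1 and Hif3a had every low-Mn library above every normal-Mn library, with log2 fold changes of 0.19, 0.40, 0.32, 0.20 and 0.20 (edgeR adjusted p from 0.0756 to 0.494). Klf9, a transcription factor induced by the hormone, passed in DESeq2 (adjusted p = 0.0249). Zbtb16, another such factor, had every low-Mn library below every normal-Mn library, at -0.56 (edgeR adjusted p = 0.104).

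Of 16 genes of the CREB and immediate early response, 14 were tested, since Fosb and Egr2 had 45 and 11 counts over the 6 libraries. By edgeR 0 rose and 0 fell (0.595% of all genes passed), and 6 had an unadjusted p below 0.05 (12.1% of all genes). DESeq2 called 1 (0.968% of all genes), and the median log2 fold change was 0.19. In 2 of the 14 the diets did not overlap, both higher (17.1% of all genes, 8.79% higher). Nr4a3, an orphan nuclear receptor, held 9.07, 13.2 and 12.3 CPM against 8.19, 6.71 and 6.61 CPM, without overlap (log2 fold change 0.68, edgeR adjusted p = 0.0506). Npas4, an activity-dependent transcription factor, held 3.08, 5.91 and 2.16 CPM against 1.498, 0.571 and 1.73 CPM, also without overlap (1.55, edgeR adjusted p = 0.0756). Fos held 14.1, 24.2 and 8.02 CPM against 10.7, 4.09 and 5.53 CPM, with overlap (1.17, edgeR adjusted p = 0.0871). The part of these inputs in the Per1 result was not tested.

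**Figure D5:**
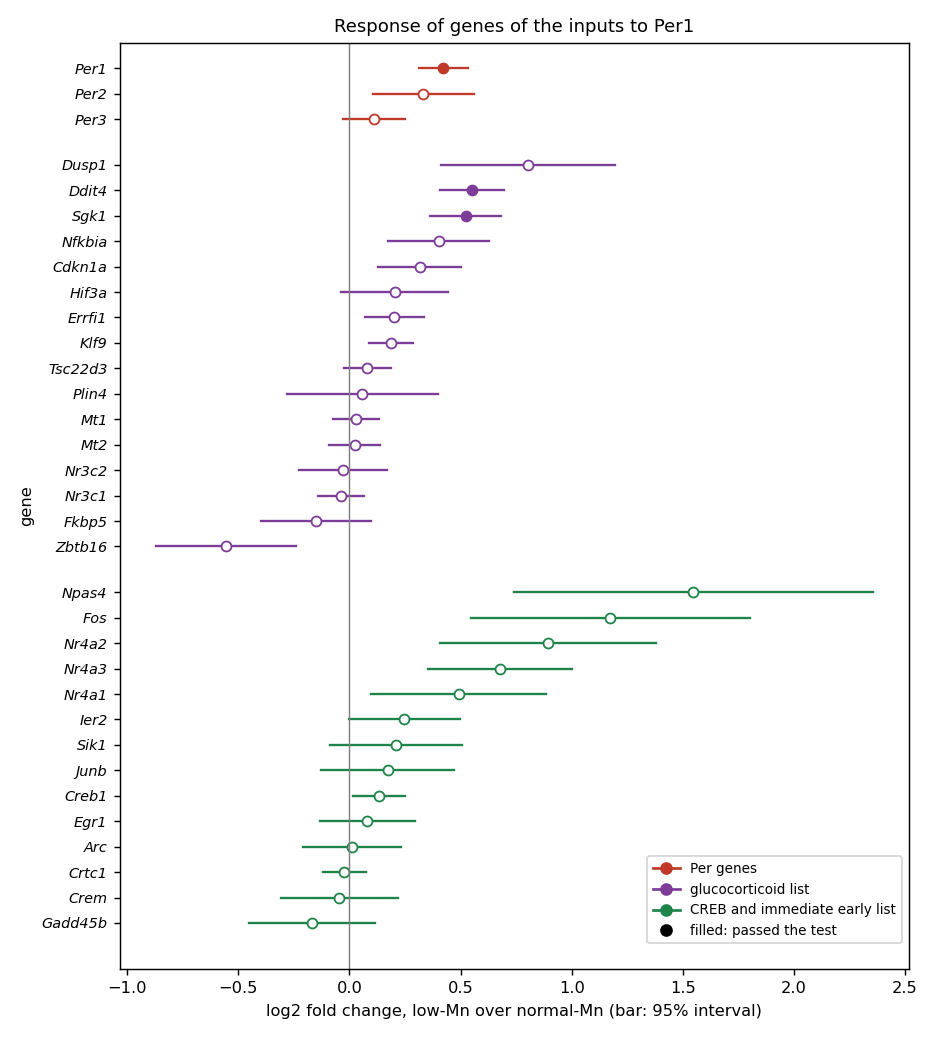
Log2 fold change on the low-Mn diet relative to the normal-Mn diet for the period genes and of 30 tested genes of the glucocorticoid list and the CREB and immediate early list (circles, filled where the edgeR adjusted p was below 0.05), with 95% intervals as bars. Ddit4 and Sgk1 are filled beside Per1, and the intervals of Fos and Npas4 are several times wider than that of Per1.

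Genes whose pattern over the 6 libraries lay closest to that of Per1 were found among 11864 tested genes with a mean CPM of at least 5, by the root mean square difference of log2 CPM centred on each gene's mean. The nearest were Serf1 (0.0441), Bag2 (0.0524), Rassf1 (0.0575), Cacna1c (0.0587) and Rpp25l (0.0599), each with its 2 diets apart, which follows from the choice by likeness to Per1. Cacna1c, an L-type calcium channel gene, held 81.9, 86.5 and 80.2 CPM in the low-Mn libraries and 69.2, 61.9 and 64.6 CPM in the normal-Mn libraries. Its log2 fold change was 0.34, that of Bag2, a cochaperone of HSP70, 0.45 and that of Rassf1, a tumour suppressor gene, 0.36. These values describe the choice and are no test of it. None of the other clock genes was near, as Per3 ranked 1121 at 0.165, Per2 1545 at 0.174 and Dbp 8749 at 0.266 on the same measure.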

How the data were processed

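Polyadenylated cerebellar RNA of 3 low-Mn and 3 normal-Mn mice was sequenced on the NovaSeq platform. The authors used STAR for alignment. RSEM, DESeq2, FastQC and mm10 stand in the submitters' processing notes, without versions. The annotation release and strand setting were not found in the labels or the methods. Per gene, the authors deposited expected counts, estimated and not normalized, of which 7.128% to 7.754% of values were not whole. The low-Mn columns carried a replicate number alone and the other 3 named the 35 ppm diet, so the former were taken as the low-Mn libraries. The 92 spike-in entries, all at 0, were left out. Symbols, positions and exon lengths came from GENCODE M21, which named 53620 of 53715 genes.

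Counts were rounded, filtered with filterByExpr (minimum count 10, minimum total 15), scaled by TMM (factors 0.9885 to 1.008) and tested with glmQLFit and glmQLFTest of edgeR 4.0.16 in R 4.3.3, and p-values were adjusted over 16123 genes by the Benjamini-Hochberg method, with 0.05 as the threshold (common dispersion 0.00361). CPM values are TMM-normalized, and fold changes and 95% intervals come from the fit. Within a diet, pairs of libraries differed beyond counting noise (chi-square per degree of freedom 3.57 to 7.56), and normal-Mn replicate 2 stood furthest from its group. Ratios between genes were compared by two-sided exact permutation tests over libraries. The gene test was first tested on simulated data with known changes. Alternatives used RLE and upper quartile scaling, no filter, an average of at least 100 counts, unrounded counts, limma-voom (limma 3.58.1), DESeq2 1.42.0, a replicate block and each library left out in turn.

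The clock genes and the lists were chosen with earlier results of these data known. Named are the clock genes, every listed gene past the test, up to 3 genes per list with the smallest p (1 such gene is not reported here), the 5 genes nearest to Per1, genes that overlap a clock gene, and others said to be named after their values were seen. Shared sequence is the share of a gene's exonic 50-mers found in another annotated gene. Promoters came from RefSeq on GRCm38.p6, with 9 of 10 clock genes matched. Per2 had no entry. Figures were drawn with matplotlib 3.10.9 in Python 3.11.15.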

Additional observations from a re-analysis of the deposited data

How the results depend on the processing

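The call of Per1 and its direction held in 14 of 14 alternatives, and 0 clock genes fell in any. The count of clock genes that rose was 2 in place of 1 with no filter on low counts, and from 1 to 2 over the 6 settings that each left out 1 library, with Per2 added when low-Mn replicate 3 was left out. Among the partner genes the count that rose was 1 (Usp2) in place of 0 with no filter, with an average of at least 100 counts and with DESeq2, and the count that fell was 1 (Cirbp) in place of 0 with upper quartile scaling, no filter, an average of at least 100 counts and DESeq2. The count of glucocorticoid genes that rose was 3 in place of 2 with an average of at least 100 counts (Dusp1 added) and with DESeq2 (Klf9 added). It was also 3 without low-Mn replicate 3 or normal-Mn replicate 1 (Dusp1 added) and without normal-Mn replicate 2 (Nfkbia added). With no filter, 5 glucocorticoid genes rose in place of 2 and 1 fell (Zbtb16), and 5 genes of the CREB and immediate early list rose in place of 0. In that list 1 gene rose (Nr4a3) with an average of at least 100 counts and with DESeq2, and from 0 to 3 rose over the settings that left out 1 library, Fos, Npas4 and Nr4a2 without low-Mn replicate 3, Fos, Nr4a2 and Nr4a3 without normal-Mn replicate 1 and Nr4a3 without low-Mn replicate 1. The cause of these moves was not tested. With no filter, 424 of 26954 genes were called, against 96 of 16123 in the test reported, and DESeq2 called 156.

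Replicate numbers did not pair the libraries (correlations of the deviations of same-numbered libraries 0.0297, -0.0238 and 0.0361). With the replicate number as a block 128 genes were called, 1 clock gene rose (Per1), 1 partner gene rose (Usp2), 4 glucocorticoid genes rose and 1 fell, and 0 genes of the CREB and immediate early list rose. The block changed the call of no clock gene.

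Only 3 libraries a diet limit these values, and no exact test of a single ratio can go below 0.1. Genes of few counts, such as Npas4 and Arntl2, have wide intervals. The hour of collection is unknown, so no value here speaks to the phase of the clock.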
